A study of Arabidopsis with 22 samples.

Results

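The *NPR* and *NIMIN* genes of Arabidopsis encode receptors of the defense hormone salicylic acid (SA) and small proteins that bind them. The 7 genes described were *NPR1* (AT1G64280), *NPR2* (AT4G26120), *NPR3* (AT5G45110), *NPR4* (AT4G19660), *NIMIN1* (AT1G02450), *NIMIN2* (AT3G25882) and *NIMIN3* (AT1G09415). They were chosen by locus identifier and not by level, and are 7 of the 25218 genes of the expression table. All 7 passed the limit on low values, a mean above 0.3 RPKM in at least 1 group, as did 21666 of the 25218 genes. RPKM is a read number scaled by the length of the gene model and by the mapped reads of the library. *NPR1*, *NIMIN1* and *NIMIN3* lie on chromosome 1, *NIMIN2* on chromosome 3, *NPR2* and *NPR4* on chromosome 4, and *NPR3* on chromosome 5.

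NPR proteins carry a BTB domain and ankyrin repeats. NPR1 binds SA and acts as a coactivator with TGA transcription factors at SA-responsive promoters such as that of *PR1*, a pathogenesis-related gene used as a marker of SA defense. NPR3 and NPR4 also bind SA and are known as corepressors of SA-responsive genes and, from biochemical work, as adaptors for CUL3 ubiquitin ligases, while NPR2 is the closest relative of NPR1. NIMIN proteins bind NPR1, and NIMIN1 is known to dampen *PR1* induction.

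The RNA-seq libraries came from uninfected whole 25-day-old plants of the Col-0 accession and 3 mutant genotypes in that background: *lux-1*, *acd6-1* and the double mutant *acd6-1lux-1*. *LUX* encodes a MYB-type transcription factor of the evening complex of the circadian clock, and *lux-1* carries an early nonsense mutation in it. *acd6-1* is a gain-of-function allele of *ACD6* with constitutive defense and small stature. Plants were grown in light-dark cycles and collected 1 h (ZT1) or 13 h (ZT13) after light onset, the later time being after lights-off. Each genotype had 3 libraries at each time, with the exception that both genotypes carrying *acd6-1* had 2 at ZT13, which makes 22 in 8 groups. Each mutation was represented by 1 allele, and the same Col-0 and mutant groups enter several comparisons, so these are not independent of each other. Because whole plants were used, fewer cells of a type and less RNA per cell cannot be told apart.

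Each library held 10306552 to 16224975 mapped reads. Library acd6-1lux-1 ZT1 replicate 3 stood apart, with 60.51% of its reads mapped against 79.84 to 81.59% in the other 21 and a chloroplast gene share of 0.6606% against 0.0128 to 0.0239%. The member differences called in comparisons that use it, and the group means and ratios below that include it, are also given without it. Fold ranges over the group means, marker levels, list differences, neighbour counts and correlations are given only with it. *LUX* itself measured 71.4 to 81.0 RPKM in *lux-1* and 6.11 to 6.84 in Col-0 at ZT13, so the nonsense allele kept its transcript. *PR1* measured 5210 to 6044 RPKM in *acd6-1* and 15.7 to 45.5 in Col-0 at ZT1. The root-hair markers *COBL9* and *EXPA7* reached at most 0.151 and 0.103 RPKM in any library, while the third root marker, *PYK10*, was present in all of them at 52.3 to 233 RPKM. The labels say whole plants.

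**Figure D1:**
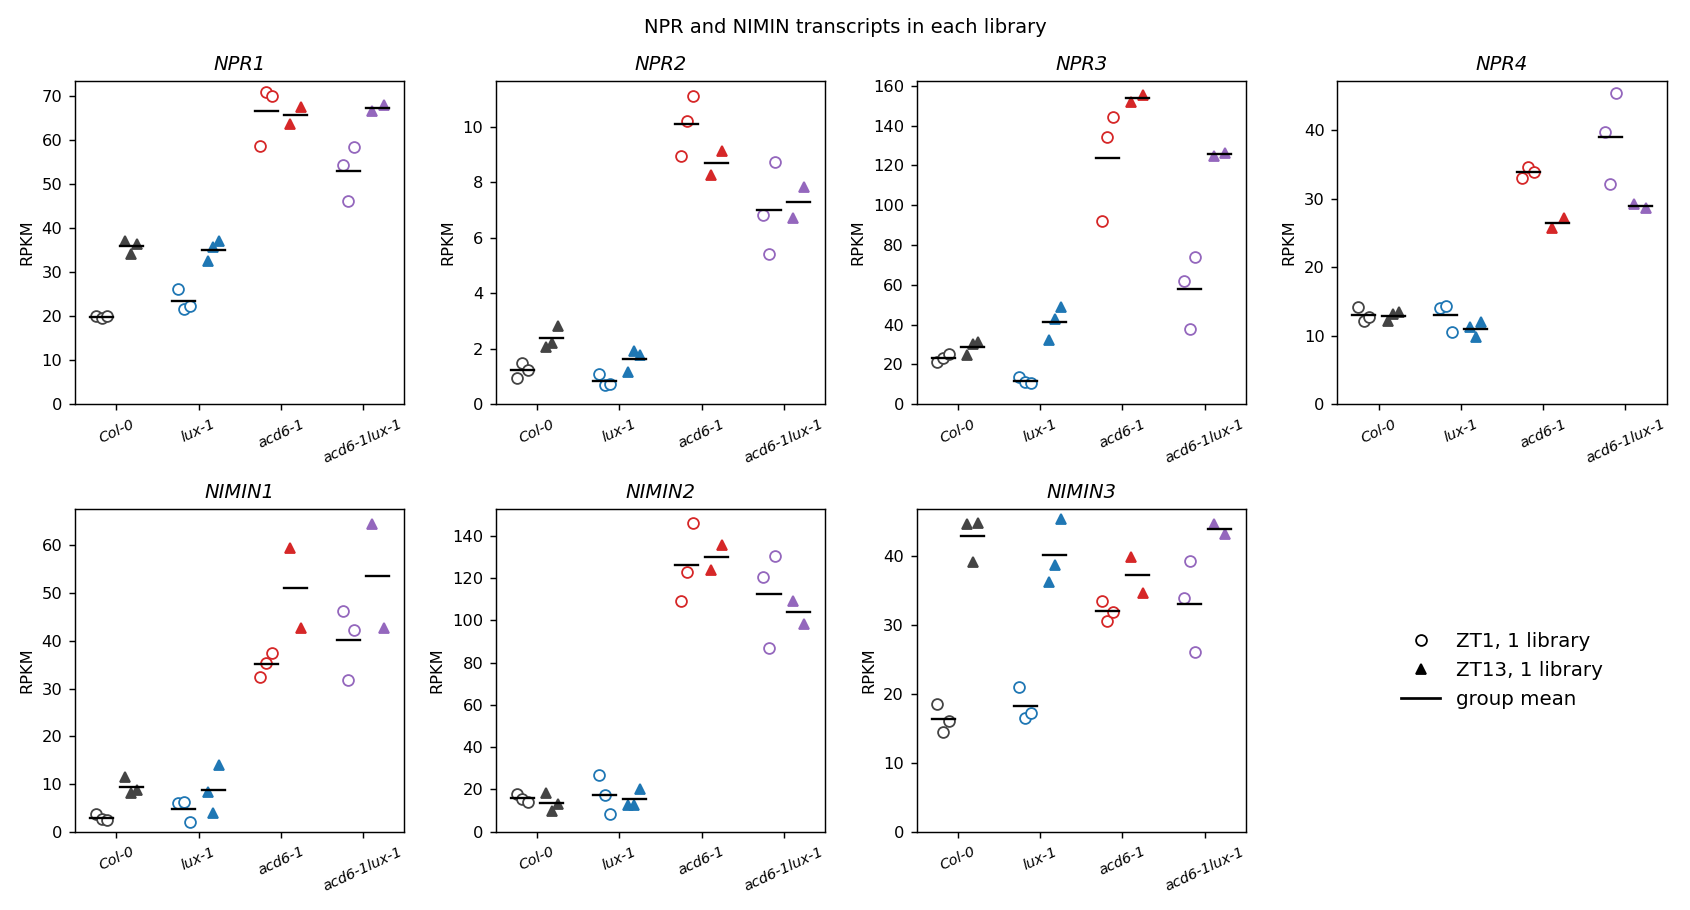
RPKM of the 7 genes in the 22 libraries, 1 panel per gene with its own linear axis from 0. Open circles are ZT1 libraries, filled triangles ZT13 libraries and short bars the group means. The mean bars of the groups that carry *acd6-1* sit above those of the others in every panel except that of *NIMIN3*, where the ZT13 groups of Col-0 and *lux-1* reach the same levels.

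The levels in unmutated plants set the scale. In Col-0 at ZT1 the highest mean among the receptors was that of *NPR3*, 23.1 ± 2.00 RPKM (SD, n = 3), next to *NPR1* at 19.8 ± 0.288 and *NPR4* at 13.03 ± 1.08. *NPR2* was the least abundant of the 7 genes, at 1.22 ± 0.267 RPKM. *NIMIN3* and *NIMIN2* measured 16.3 ± 2.06 and 15.8 ± 1.91 RPKM, and *NIMIN1* 2.94 ± 0.644. RPKM is a level per length, here nearly always the coding length, so levels of different genes are set beside each other on that scale only. The reads behind a value ranged from 16 to 269 per library for *NPR2* and from 11 to 385 for *NIMIN1*, against 441 to 1841 for *NPR1* and 234 to 4047 for *NPR3*.

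Over the 8 group means the genes differed in how far they moved. *NIMIN1* spanned an 18.2-fold range from its lowest to its highest group mean, *NPR3* 12.98-fold, *NPR2* 12.1-fold and *NIMIN2* 9.48-fold. The ranges of *NPR4*, *NPR1* and *NIMIN3* were smaller, at 3.56-, 3.39- and 2.69-fold.

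The comparison of *acd6-1* with Col-0 asks how the receptors and their partners differ in plants with constitutive SA defense. At ZT1 all 7 genes were called higher in *acd6-1*, each with no overlap between the libraries of both genotypes. How many of all genes were separated in this way was not counted, here or in the comparisons below. Over all genes tested, 37.2% were called higher and 31.0% lower, so a single higher call is common in this comparison. The median log2 difference of the 7 genes was 2.32, against 0.03 over all genes tested. Here and throughout, differences are of log2(RPKM + 1) from limma, with Benjamini-Hochberg adjusted p over all genes tested and a call at adjusted p under 0.1.

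*NPR1*, the coactivator, measured 20.03, 19.5 and 19.96 RPKM in the Col-0 libraries and 58.5, 70.7 and 70.0 in those of *acd6-1* at ZT1. The *acd6-1* mean was 3.35-fold the Col-0 mean, a log2 difference of 1.69 (SE 0.09, adjusted p = 1.71e-10). *NPR2* had 0.952, 1.49 and 1.23 RPKM in Col-0 and 8.96, 10.2 and 11.1 in *acd6-1*. The *NPR2* mean was thus 8.27-fold higher (log2 2.32, SE 0.16, adjusted p = 1.91e-09), and its highest Col-0 library was still far under its lowest *acd6-1* library.

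Of the corepressor pair, *NPR3* moved further. *NPR3* measured 21.0, 23.3 and 25.0 RPKM in Col-0 and 91.9, 134 and 145 in *acd6-1*, which is 5.35-fold (log2 2.35, SE 0.21, adjusted p = 3.25e-08). Its *acd6-1* libraries were spread, replicate 1 being the lowest. *NPR4* rose from 14.2, 12.1 and 12.7 RPKM to 33.1, 34.7 and 34.0, or 2.60-fold (log2 1.32, SE 0.12, adjusted p = 3.61e-08).

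The NPR1-binding NIMINs split by size of change. *NIMIN1* had 3.65, 2.75 and 2.41 RPKM in Col-0 and 32.5, 35.4 and 37.4 in *acd6-1*, an 11.9-fold difference of means (log2 3.21, SE 0.34, adjusted p = 3.08e-07). *NIMIN2* went from 17.8, 15.6 and 14.0 RPKM to 109, 123 and 146, a 7.98-fold difference (log2 2.91, SE 0.29, adjusted p = 1.35e-07). *NIMIN3* had 18.5, 14.4 and 16.1 RPKM in Col-0 and 33.5, 30.5 and 31.9 in *acd6-1*, 1.96-fold (log2 0.93, SE 0.13, adjusted p = 7.26e-06). Ranked from the highest log2 difference among the 21666 genes tested, *NIMIN1* stood at 315, *NIMIN2* at 412, *NPR3* at 732, *NPR2* at 751, *NPR1* at 1411, *NPR4* at 2046 and *NIMIN3* at 3150.

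In the ZT13 libraries 6 of the 7 genes were called higher in *acd6-1*, where 22.3% of all genes tested were called higher and 26.5% lower. The exception was *NIMIN3*, at 44.6, 39.1 and 44.7 RPKM in Col-0 and 39.8 and 34.5 in *acd6-1*, with overlapping libraries (log2 -0.20, SE 0.15, adjusted p = 0.296). The ZT13 log2 differences were 0.85 for *NPR1*, 1.53 for *NPR2*, 2.38 for *NPR3*, 0.99 for *NPR4*, 2.31 for *NIMIN1* and 3.19 for *NIMIN2*, with adjusted p from 3.62e-07 to 9.81e-05. As ratios of means these were 1.83-fold for *NPR1*, 5.34-fold for *NPR3* and 9.48-fold for *NIMIN2*.

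The same comparison in plants without functional LUX, *acd6-1lux-1* against *lux-1*, called 7 of 7 genes higher at ZT1 and 6 of 7 at ZT13. Over all genes tested, 32.2% were called higher and 18.1% lower at ZT1. The ZT13 shares were 19.9% and 18.1%. At ZT1 the log2 differences were 1.14 for *NPR1*, 2.11 for *NPR2*, 2.15 for *NPR3*, 1.52 for *NPR4*, 2.91 for *NIMIN1*, 2.72 for *NIMIN2* and 0.81 for *NIMIN3*. At ZT13 they were 0.93, 1.67, 1.60, 1.33, 2.60 and 2.71 for the first 6 in that order. *NIMIN3* was again the gene without a call at ZT13, at 36.3, 38.7 and 45.3 RPKM in *lux-1* and 44.6 and 43.1 in *acd6-1lux-1* (log2 0.13, adjusted p = 0.54). Without the library that stood apart, the ZT1 count was still 7, with 1.07 for *NPR1*, 1.96 for *NPR2*, 1.95 for *NPR3*, 1.41 for *NPR4*, 2.87 for *NIMIN1*, 2.603 for *NIMIN2* and 0.97 for *NIMIN3*.

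**Figure D2:**
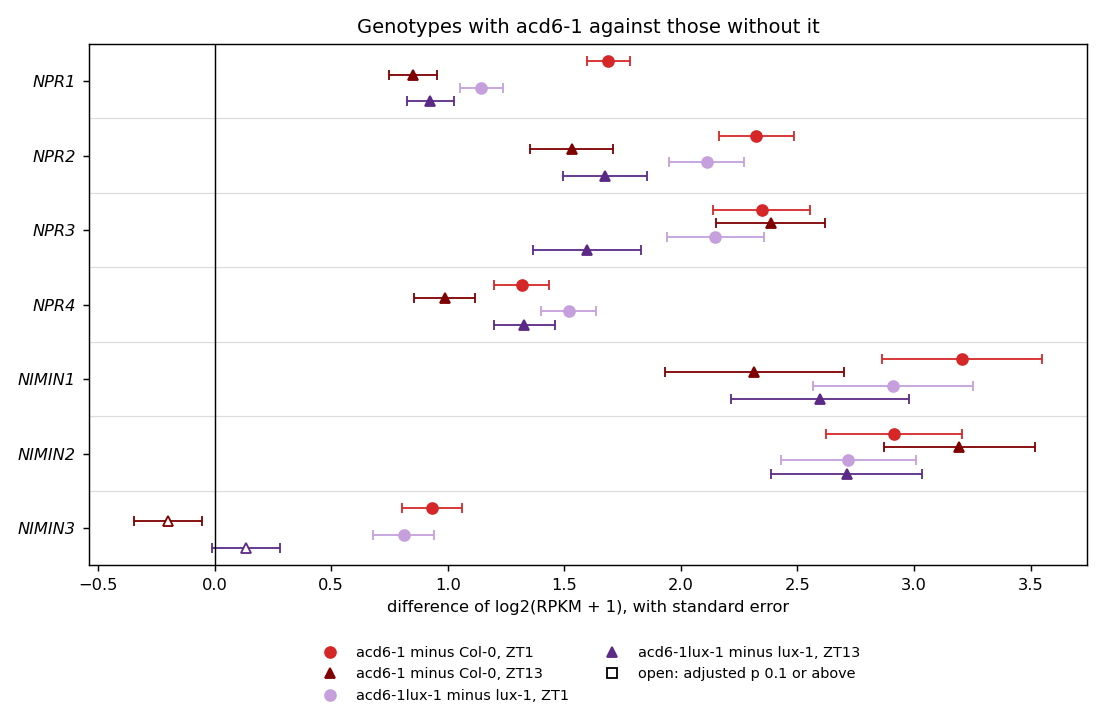
Difference of log2(RPKM + 1) between genotypes with and without *acd6-1*, with its standard error, for the 7 genes at ZT1 (circles) and ZT13 (triangles). Open symbols mark adjusted p of 0.1 or above, which are the ZT13 values of *NIMIN3*, -0.20 and 0.13; all the other differences lie to the right of 0.

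Whether *acd6-1* changed a gene by a different amount at ZT13 than at ZT1 was tested as a difference of differences, called in 3 of the 7 genes against 32.9% of all genes in either direction. For *NPR1* the *acd6-1* difference was smaller at ZT13 by 0.84 on the log2 scale (-0.84, SE 0.14, adjusted p = 0.000285). *NPR2* gave -0.79 (SE 0.24, adjusted p = 0.0222) and *NIMIN3* -1.13 (SE 0.20, adjusted p = 0.000439). In *NPR1* and *NIMIN3* the Col-0 level was higher at ZT13, while the *acd6-1* levels differed less between times. The *NPR1* mean in *acd6-1* was 66.4 ± 6.86 RPKM at ZT1 (SD, n = 3) and 65.5 ± 2.88 at ZT13 (n = 2). That of *NIMIN3* was 32.0 ± 1.48 and 37.2 ± 3.76, without overlap between times but not called (log2 0.21, adjusted p = 0.275). *NPR3* had no such change of the *acd6-1* difference (log2 0.04), and *NIMIN1* gave -0.89 (SE 0.51, adjusted p = 0.223). Over all genes the median of this test was -0.11, with 5267 genes called lower and 1852 higher.

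Markers of senescing leaf and of mesophyll moved with *acd6-1* as well. *SAG12*, *SAG13* and *ORE1* gave 3 of 3 higher calls in *acd6-1* against Col-0 at ZT1 and 2 of 3 at ZT13, and their summed level at ZT1 was 1929 to 2407 RPKM in *acd6-1* against 107 to 220 in Col-0. The mesophyll genes *RBCS1A*, *CA1* and *LHCB1.1* were lower in 3 of 3 cases at both times, with a ZT1 sum of 16261 to 18753 against 37712 to 40964 RPKM. None of these markers was at 0 in all *acd6-1* or Col-0 libraries at ZT1, and their part in the differences of the *NPR* and *NIMIN* genes was not tested.

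Scaling mattered little for these calls but did shift the background. With median-of-ratios scaling 35% of genes were higher and 35.6% lower in *acd6-1* at ZT1, and with quantile normalization 29.5% and 42%, where the median of all genes became -0.12. For *acd6-1lux-1* against *lux-1* at ZT1 the splits were 26.8% and 26.5%, and 22.2% and 33.8%. Over 35 fits that differed in scaling, offset, filter, test or library left out, all 26 member calls of the 4 *acd6-1* comparisons were kept. In 22 of these fits 1 library was left out. Where that library is outside the groups compared, the difference stays the same and only its error and adjusted p can change. With a log2 difference of 1 also required, 5 of the 26 were lost: *NIMIN3* at ZT1 and *NPR1* at ZT13 with and without LUX, and *NPR4* at ZT13 with LUX.

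The comparison of *lux-1* with Col-0 asks whether SA receptor levels differ in plants without functional LUX. At ZT1 only *NPR3* of the 7 genes was called, and it was lower, where 13.2% of all genes were called higher and 4.61% lower. *NPR3* measured 13.9, 10.9 and 10.8 RPKM in *lux-1* against 21.0, 23.3 and 25.0 in Col-0, so every *lux-1* library was under every Col-0 library. The *lux-1* mean was 0.512 of the Col-0 mean (log2 -0.91, SE 0.21, adjusted p = 0.008), and the gene ranked 305 from the lowest of 21666. The call held in all 35 fits, with log2 values from -1.08 to -0.86, but would not pass a required log2 difference of 1.

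The other receptors at ZT1 gave no call in *lux-1*. *NPR1* had 26.1, 21.7 and 22.3 RPKM, all above the 19.5 to 20.03 of Col-0, but with log2 0.22 (SE 0.09) its adjusted p was 0.127. Without *lux-1* ZT1 replicate 2 it passed (log2 0.27, adjusted p = 0.0963), as it did without *acd6-1* ZT1 replicate 1 (adjusted p = 0.0986) or *acd6-1lux-1* ZT1 replicate 2 (adjusted p = 0.0807). *NPR2* had 1.095, 0.679 and 0.722 RPKM (log2 -0.28, adjusted p = 0.289) and *NPR4* 14.0, 14.3 and 10.6 (log2 -0.01, adjusted p = 0.968), both overlapping Col-0. The *NIMIN* genes also overlapped and ranged from 0.02 for *NIMIN2* to 0.47 for *NIMIN1* on the log2 scale, with a wide spread in *lux-1*, 2.09 to 6.24 RPKM for *NIMIN1* and 8.60 to 26.8 for *NIMIN2*. In both genes *lux-1* replicate 3 was the lowest.

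At ZT13 no member was called in *lux-1* against Col-0, with 2.08% of all genes higher and 1.85% lower. *NPR3* was then on the other side: 32.3, 42.9 and 48.9 RPKM in *lux-1* and 24.6, 30.4 and 31.3 in Col-0, again without overlap (log2 0.50, SE 0.21, adjusted p = 0.274). *NPR2* had 1.14, 1.92 and 1.76 RPKM against 2.05, 2.22 and 2.83 (log2 -0.37, adjusted p = 0.292), also without overlap. *NPR3* and *NPR2* were the 2 members with an unadjusted limma p under 0.05, and edgeR on the reads recovered from the RPKM values also called none. *NPR4* was without overlap too (log2 -0.21, adjusted p = 0.453).

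The *lux-1* difference of *NPR3* at ZT13 minus that at ZT1 was 1.41 (SE 0.29, adjusted p = 0.00621), the only member called of 7 against 13.1% of all genes in either direction. The same value describes the daily change: *NPR3* went from 11.8 ± 1.75 RPKM at ZT1 to 41.4 ± 8.42 at ZT13 in *lux-1*, 3.49-fold, and from 23.1 ± 2.00 to 28.8 ± 3.63 in Col-0, 1.24-fold (SD, n = 3). It held in all 35 fits, from 1.28 to 1.64.

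In the *acd6-1* background, *acd6-1lux-1* was compared with *acd6-1* to ask the same in plants with constitutive defense. At ZT1, 3 of the 7 genes were lower and none higher, against 10.9% lower and 22.8% higher over all genes tested. The median log2 difference was -0.17 over the 7 genes and 0.10 over all genes.

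*NPR3* was the gene with the largest of these differences: 61.9, 37.6 and 73.8 RPKM in *acd6-1lux-1* against 91.9, 134 and 145 in *acd6-1*. The mean was 0.467 of that in *acd6-1* (log2 -1.11, SE 0.21, adjusted p = 0.000928), and the libraries did not overlap. *NPR1* had 54.3, 46.2 and 58.3 RPKM against 58.5, 70.7 and 70.0 (0.797 of the *acd6-1* mean, log2 -0.32, SE 0.09, adjusted p = 0.0161), where the highest *acd6-1lux-1* library lay just under the lowest of *acd6-1*. *NPR2* had 6.83, 5.42 and 8.72 RPKM against 8.96, 10.2 and 11.1 (0.692, log2 -0.49, SE 0.16, adjusted p = 0.0335), also just separated.

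*NPR4* and the *NIMIN* genes had no call in this comparison. *NPR4* measured 39.7, 32.2 and 45.4 RPKM in *acd6-1lux-1* against 33.1, 34.7 and 34.0 (log2 0.19, adjusted p = 0.257, and 0.32 with adjusted p = 0.0725 without *acd6-1lux-1* ZT1 replicate 2). *NIMIN1* at 46.3, 31.9 and 42.3 RPKM and *NIMIN2* at 121, 86.7 and 130 overlapped *acd6-1*, with log2 0.17 and -0.17, and *NIMIN3* gave 0.03. In *acd6-1lux-1*, replicate 2 was the lowest library for *NPR1*, *NPR2*, *NPR3*, *NPR4*, *NIMIN1* and *NIMIN2*, and the highest for *NIMIN3*.

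The *NPR1* and *NPR2* calls were lost in the fit of only the libraries compared (adjusted p = 0.127 and 0.114). They were also lost without replicate 2 of *acd6-1lux-1*, where *NPR1* gave -0.23 (adjusted p = 0.104) and *NPR2* -0.34 (adjusted p = 0.186), and without *acd6-1* ZT1 replicate 3 *NPR2* gave -0.42 (adjusted p = 0.123). Without the library that stood apart the 3 calls were kept, at -0.40 for *NPR1*, -0.64 for *NPR2* and -1.31 for *NPR3*. The senescing-leaf markers summed to 942 to 2051 RPKM in *acd6-1lux-1* against 1929 to 2407 in *acd6-1* at ZT1. Most of that sum was *SAG13*, at 912 to 1980 against 1871 to 2306 RPKM. Of the 3 markers, 1 was called lower in *acd6-1lux-1* and none higher. *ORE1* measured 15.8 to 27.6 against 43.1 to 71.1 RPKM. *SAG12* lay the other way, at 14.1 to 43.3 against 6.22 to 30.5 RPKM, with overlapping libraries. The part of these markers in the *NPR* values was not tested.

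At ZT13 none of the 7 genes was called between *acd6-1lux-1* and *acd6-1*, by limma or by edgeR on recovered reads, and none had an unadjusted p under 0.05. Over all genes 1.15% were higher and 0.346% lower. *NPR3* measured 125 and 126 RPKM in *acd6-1lux-1* against 152 and 155 (log2 -0.29, SE 0.25, adjusted p = 0.782), and *NPR1* 66.6 and 67.9 against 63.5 and 67.5. The libraries did not overlap for 5 of the 7 genes, *NPR3* among them, which says little with 2 libraries per group. The change of the *lux-1* difference between the 2 times in this background was called for none of the 7 genes, against 6.84% of all genes. It was 0.82 for *NPR3* (adjusted p = 0.19) and 0.36 for *NPR1* (adjusted p = 0.192). Without the library that stood apart both were called, at 1.02 (adjusted p = 0.0585) and 0.43 (adjusted p = 0.0821), and likewise without *acd6-1* ZT1 replicate 1, at 1.02 (adjusted p = 0.0787) and 0.45 (adjusted p = 0.0792).

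**Figure D3:**
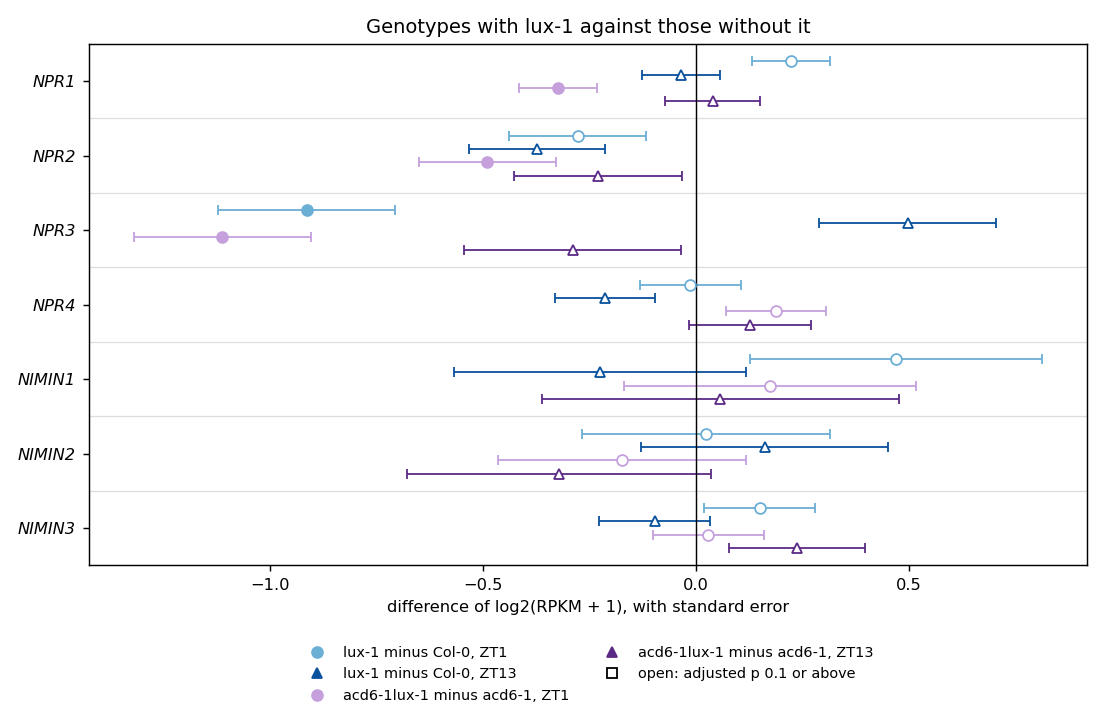
Difference of log2(RPKM + 1) between genotypes with and without *lux-1*, with its standard error, at ZT1 (circles) and ZT13 (triangles), in the Col-0 and the *acd6-1* background. Filled symbols have adjusted p under 0.1: *NPR3* in both backgrounds at ZT1 (-0.91 and -1.11), and *NPR1* (-0.32) and *NPR2* (-0.49) in the *acd6-1* background.

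Whether *lux-1* changed a gene by a different amount in the *acd6-1* background was also tested directly. At ZT1 it was called for *NPR1* alone of 7, against 16.0% of all genes in either direction. The *lux-1* difference of *NPR1* was 0.22 in Col-0 and -0.32 in *acd6-1*, a difference of -0.55 (SE 0.13, adjusted p = 0.0198), which was -0.62 (adjusted p = 0.0107) without the library that stood apart. For *NPR3* it was -0.20 and not called, so the fall of *NPR3* at ZT1 was not shown to differ between backgrounds. At ZT13 no member was called, against 0.586% of all genes, with -0.79 for *NPR3* (adjusted p = 0.37), the 1 member with an unadjusted limma p under 0.05. By edgeR on recovered reads none was called either.

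Floral markers separated *lux-1* from Col-0 at ZT13, with 5 of 5 higher and a summed level of 13.9 to 32.9 against 1.17 to 4.55 RPKM, and 1 of 5 was higher at ZT1, at 3.91 to 19.3 against 1.88 to 4.54 RPKM. No marker of the list was at 0 in all libraries of any of these groups, and the part of these markers in the *lux-1* values was not tested. Scaling shifted the background of the ZT1 comparisons. With median-of-ratios scaling 6.78% were higher and 7.6% lower in *lux-1*, with quantile normalization 8.11% and 6.45%. For *acd6-1lux-1* against *acd6-1* they were 12.8% and 17.4%, and 17.3% and 13.8%.

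The 20 nearest loci of each gene, 10 on each side in locus order, were counted to see whether the *lux-1* differences extended to neighbours. Around *NPR3*, 15 of the 20 neighbours were tested, of which none was called in *lux-1* against Col-0 at either time. In *acd6-1lux-1* against *acd6-1* at ZT1 3 were higher and 3 lower. Around *NPR1*, 3 of 15 tested neighbours were higher and none lower in that comparison, and around *NPR2*, where 18 were tested, 3 were higher and 4 lower. Around the other 6 genes, 1 to 4 tested neighbours were called in *lux-1* against Col-0 at ZT1. Over all genes 13.2% were higher and 4.61% lower in that comparison, and 22.8% and 10.9% in *acd6-1lux-1* against *acd6-1*, so nothing is read from these small counts.

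Sampling time was compared within each genotype, which asks how far SA receptor levels follow the day. In Col-0, 4 of the 7 genes rose towards ZT13 and none fell, against 45.6% higher and 14.4% lower over all genes. The median of all genes was itself shifted, by 0.24 in Col-0, 0.15 in *lux-1* and 0.12 in *acd6-1*, and fell to at most 0.04 in size under the other scalings. In *acd6-1lux-1* the median was 0.055. The time differences below were tested against 0 and are not corrected for these medians, so they are to be read beside them. With median-of-ratios scaling the Col-0 background was 28.5% higher and 25.9% lower.

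*NIMIN3* had one of the clearest rises in Col-0, from 18.5, 14.4 and 16.1 to 44.6, 39.1 and 44.7 RPKM, 2.62-fold (log2 1.34 against the median of 0.24, SE 0.13, adjusted p = 1.19e-07). *NPR1* went from 20.03, 19.5 and 19.96 to 37.1, 34.1 and 36.3 RPKM, 1.81-fold (log2 0.82, SE 0.09, adjusted p = 6.27e-07), and stayed at 0.51 or above in all fits. *NIMIN1* rose from 2.41 to 3.65 RPKM at ZT1 to 8.18 to 11.4 at ZT13, 3.21-fold (log2 1.40, SE 0.34, adjusted p = 0.00198). All 3 pairs of groups were separated.

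*NPR2* was also higher at ZT13 in Col-0, at 2.05, 2.22 and 2.83 RPKM (log2 0.60, SE 0.16, adjusted p = 0.00404), but lost the call with limma voom on recovered reads (adjusted p = 0.115). *NPR3* (log2 0.30, adjusted p = 0.241) and *NIMIN2* (log2 -0.23, adjusted p = 0.545) overlapped between times. *NPR4* gave -0.02 (adjusted p = 0.937), which lies below the median of all genes, and under median-of-ratios scaling it was called lower at ZT13 (log2 -0.29, adjusted p = 0.0889), as it was by edgeR (log2 -0.35, adjusted p = 0.0467). In *lux-1* its value of -0.22 (adjusted p = 0.142) likewise became a lower call under that scaling (log2 -0.36, adjusted p = 0.0382), and also when *lux-1* ZT1 replicate 3 was left out (log2 -0.35, adjusted p = 0.0235) or *acd6-1lux-1* ZT1 replicate 2 (adjusted p = 0.0889).

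In *lux-1*, 5 of 7 genes were higher at ZT13 and none lower, with 37.7% higher and 16.4% lower over all genes, or 27.5% and 23.3% with median-of-ratios scaling. *NPR3* had the largest difference, from 13.9, 10.9 and 10.8 to 32.3, 42.9 and 48.9 RPKM (log2 1.71 against the median of 0.15, SE 0.21, adjusted p = 2.57e-06). *NIMIN3* gave 1.095, *NPR1* 0.56 and *NPR2* 0.50, all with separated groups. The *NPR2* call was lost with limma voom on recovered reads (adjusted p = 0.129). The fifth call, *NIMIN1* at 0.71, had overlapping libraries and an adjusted p of 0.0993, and was called in 9 of 35 fits, so little rests on it. Without *lux-1* ZT1 replicate 3 it was 0.30 (adjusted p = 0.492), and leaving out replicate 3 of *lux-1* at ZT13 gave 0.32 (adjusted p = 0.467).

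In *acd6-1* none was higher and *NPR4* was lower at ZT13, at 25.7 and 27.3 RPKM against 33.1, 34.7 and 34.0 (log2 -0.35, SE 0.13, adjusted p = 0.0441), while 31.2% of all genes were higher and 15.8% lower, or 22.3% and 22.7% with median-of-ratios scaling. Without *acd6-1* ZT13 replicate 1 the *NPR4* value was -0.30 (adjusted p = 0.2). *NPR1* gave -0.02 and *NIMIN3* 0.21 (adjusted p = 0.275), the genes that were higher at ZT13 in Col-0.

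In *acd6-1lux-1*, 3 genes were higher at ZT13 and 1 lower, against 27.2% higher and 19.9% lower over all genes, or 23.9% and 22.8% with median-of-ratios scaling. *NPR3* went from 61.9, 37.6 and 73.8 to 125 and 126 RPKM, 2.17-fold (log2 1.16, SE 0.23, adjusted p = 0.000646), with every ZT13 library above every ZT1 library. *NPR1* gave 0.35 (adjusted p = 0.0117), *NIMIN3* 0.42 (adjusted p = 0.0295) and *NPR4* -0.41 (adjusted p = 0.0199). In the fit of only the libraries compared the *NPR4* and *NIMIN3* calls were lost (adjusted p = 0.115 and 0.143). Without the library that stood apart *NPR3* gave 1.36, *NPR1* 0.42 and *NPR4* -0.29 (adjusted p = 0.0912), all still called. The *NIMIN3* call was lost without the library that stood apart (log2 0.26, adjusted p = 0.14) and without *acd6-1lux-1* ZT13 replicate 1 (log2 0.39, adjusted p = 0.136).

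**Figure D4:**
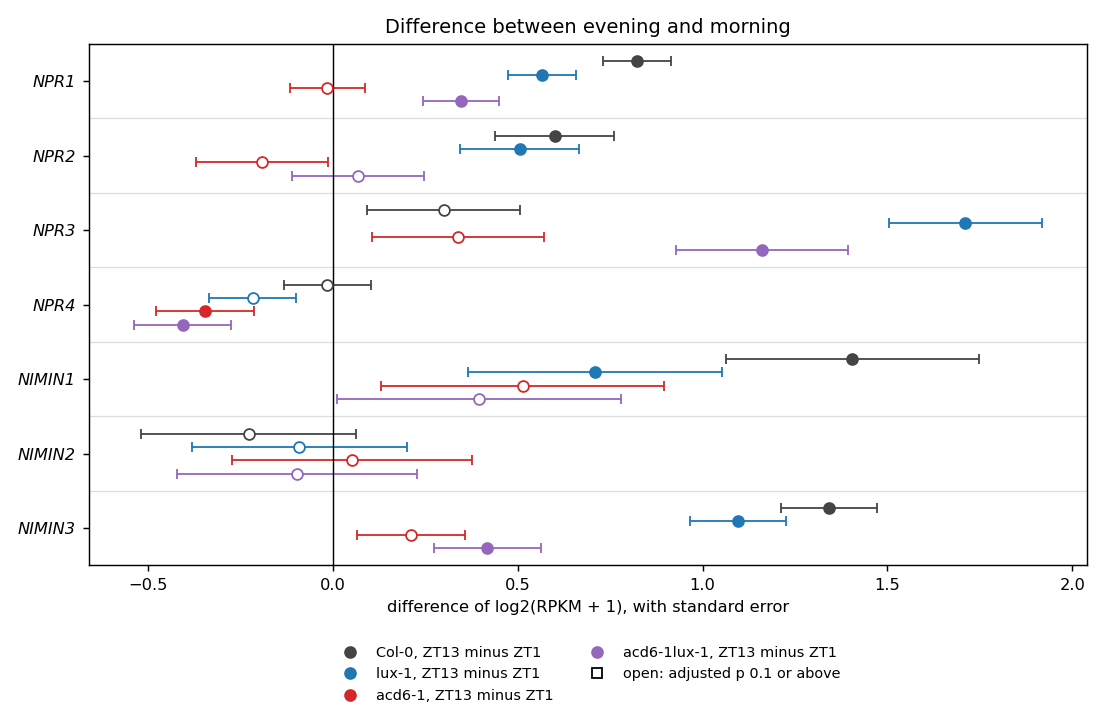
ZT13 minus ZT1 difference of log2(RPKM + 1), with its standard error, for the 7 genes in the 4 genotypes. Open symbols have adjusted p of 0.1 or above. *NPR3* lies at 1.71 in *lux-1* and 1.16 in *acd6-1lux-1* against 0.30 in Col-0 and 0.34 in *acd6-1*, while *NIMIN3* lies at 1.34 in Col-0 and 0.21 in *acd6-1*.

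The order of the 8 group means differed between genes. *NPR3* ran from *acd6-1* at ZT13 (154 ± 2.18 RPKM, SD, n = 2) through *acd6-1lux-1* at ZT13 (126 ± 1.26, n = 2), *acd6-1* at ZT1 (124 ± 27.9, n = 3) and *acd6-1lux-1* at ZT1 (57.7 ± 18.5, n = 3) down to *lux-1* at ZT1 (11.8 ± 1.75, n = 3). In that order the neighbours *acd6-1lux-1* ZT13 and *acd6-1* ZT1 overlapped, as did *acd6-1lux-1* ZT1 with *lux-1* ZT13, and Col-0 ZT13 with Col-0 ZT1. The lowest group, *lux-1* at ZT1, was separate from all. Without the library that stood apart the *acd6-1lux-1* ZT1 mean was 49.7 ± 17.2 RPKM (n = 2), at the same place in the order.

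For *NPR1* the top 3 groups, *acd6-1lux-1* at ZT13 (67.3 ± 0.93 RPKM, n = 2) and *acd6-1* at both times, overlapped, and Col-0 and *lux-1* at ZT13 (35.8 ± 1.57 and 35.0 ± 2.35, n = 3 each) overlapped as well. *acd6-1lux-1* at ZT1 (52.9 ± 6.17, n = 3) lay between those sets, as it did without the library that stood apart (50.2 ± 5.75, n = 2). *NPR2* was highest in *acd6-1* at ZT1 (10.1 ± 1.09 RPKM, n = 3) and lowest in *lux-1* at ZT1 (0.832 ± 0.229, n = 3), where Col-0 ZT1 overlapped *lux-1* at either time but *lux-1* ZT13 and *lux-1* ZT1 were separate. *NPR4* was highest in *acd6-1lux-1* at ZT1 (39.1 ± 6.66 RPKM, n = 3), which overlapped *acd6-1* at ZT1 and was 36.0 ± 5.34 (n = 2) without the library that stood apart, and lowest in *lux-1* at ZT13 (10.98 ± 1.13, n = 3).

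*NIMIN1* and *NIMIN2* each had a gap between the 4 groups with *acd6-1* and the 4 without, and overlap between neighbours within both sets. *NPR1*, *NPR2* and *NPR4* had that gap as well, but also gaps within the sets. The lowest library with *acd6-1* had 31.9 RPKM of *NIMIN1* and the highest without it 14.1, and for *NIMIN2* these were 86.7 and 26.8. *NIMIN3* had only 1 gap in its order, between *acd6-1* at ZT1 and *lux-1* at ZT1 (18.2 ± 2.40 RPKM, n = 3).

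Ratios within a library do not depend on its scaling and describe the balance between members. They use the same values as the differences above and add no separate test. *NPR3* over *NPR1*, a corepressor over the coactivator, averaged 1.17 in Col-0 at ZT1 (1.05 to 1.25) and 0.505 in *lux-1* (0.484 to 0.531). In *acd6-1* it was 1.85 (1.57 to 2.07) and in *acd6-1lux-1* 1.07 (0.814 to 1.27), so at ZT1 both genotypes with *lux-1* lay under their LUX counterparts without overlap. The *acd6-1lux-1* mean was 0.977 (0.814 to 1.14) without the library that stood apart. At ZT13 it was 0.805 in Col-0 (0.663 to 0.892), 1.17 in *lux-1* (0.996 to 1.32), 2.35 in *acd6-1* (2.30 to 2.40) and 1.87 in *acd6-1lux-1* (1.86 to 1.87).

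*NPR3* over *NPR4*, between both corepressors, has the same numerator and so restates the *NPR3* differences where *NPR4* moved little. At ZT1 the *NPR4* mean in *lux-1* was 0.996 of that in Col-0, and in *acd6-1lux-1* 1.15 of that in *acd6-1*. The ZT1 ratio averaged 0.922 in *lux-1* (0.758 to 1.02) against 1.79 in Col-0. In *acd6-1lux-1* it was 1.45 (1.17 to 1.62) against 3.64 in *acd6-1* (2.78 to 4.26). The *acd6-1lux-1* value was 1.36 (1.17 to 1.56) without the library that stood apart. At ZT13 it was 3.79 in *lux-1* (2.88 to 4.41) against 2.23 in Col-0, and 4.33 in *acd6-1lux-1* against 5.81 in *acd6-1*. *NIMIN3* over *NPR1* was lower with *acd6-1* at both times, 0.486 against 0.823 at ZT1 and 0.570 against 1.19 at ZT13 in plants with LUX. Without LUX the ZT1 values overlapped, at 0.640 (0.447 to 0.850) in *acd6-1lux-1* against 0.779 (0.760 to 0.803) in *lux-1*. The *acd6-1lux-1* mean was 0.736 without the library that stood apart. At ZT13 it was 0.653 against 1.14 in *lux-1*.

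**Figure D5:**
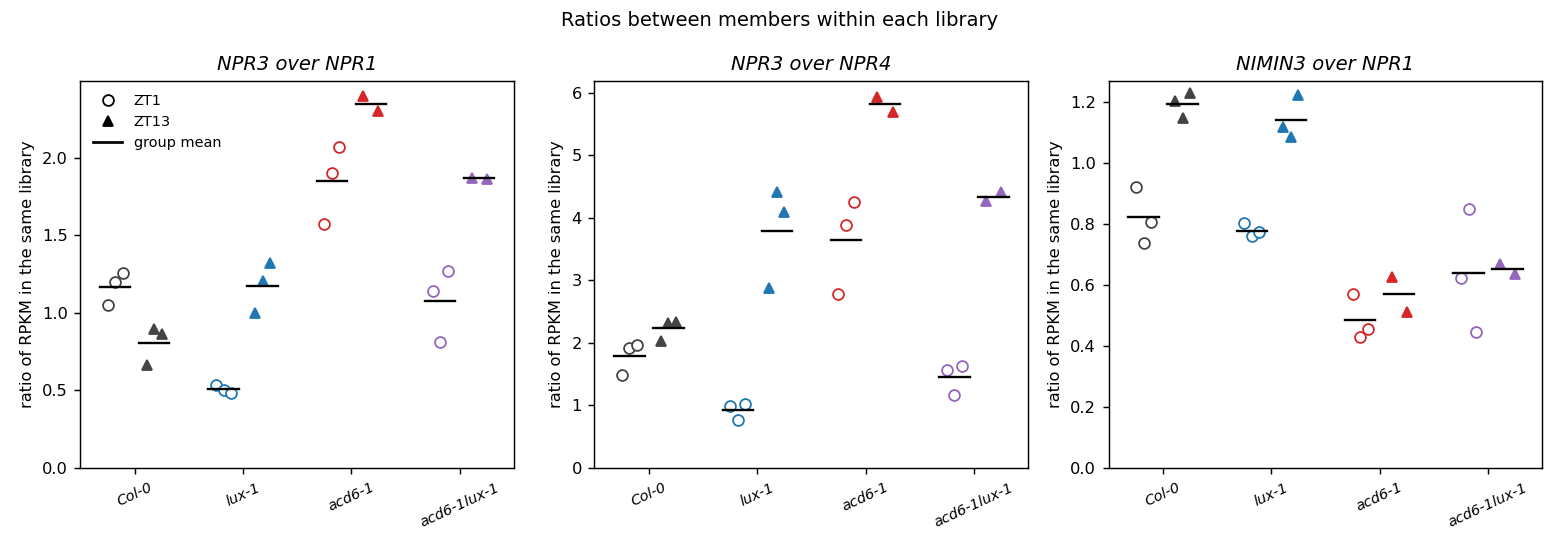
Ratios of RPKM within each library for *NPR3* over *NPR1*, *NPR3* over *NPR4* and *NIMIN3* over *NPR1*, by group, with open circles for ZT1, filled triangles for ZT13 and bars for group means. *NPR3* over *NPR1* is lowest in *lux-1* at ZT1 (mean 0.505) and highest in *acd6-1* at ZT13 (mean 2.35).

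Most genes listed as working with NPR1 were higher in *acd6-1* at ZT1. Of 19 partners and regulators of NPR1, among them TGA factors, CUL3 proteins, thioredoxins and ubiquitin enzymes, 15 were called higher and 1 lower in *acd6-1* at ZT1, with a median log2 difference of 0.57, against 37.2% and 31.0% and a median of 0.03 over all genes. The lowest adjusted p values were those of *TRXH5*, a thioredoxin that reduces NPR1 (log2 3.22, adjusted p = 5.09e-10), *SNRK2.8*, a kinase that phosphorylates NPR1 (1.66, adjusted p = 1.08e-09), *UBE4*, a ubiquitin ligase (0.93, adjusted p = 3.63e-08), and *GRXC9*, a glutaredoxin that binds TGA factors (3.81, adjusted p = 1.92e-07). The lower one was *SNI1*, a repressor of SA genes (-0.44, adjusted p = 0.0562). At ZT13 9 of the 19 were called higher and 3 lower, with a median of 0.25. The shares over all genes were then 22.3% and 26.5%, and *SNI1* was not called (0.10, adjusted p = 0.748).

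In *acd6-1lux-1* against *acd6-1* at ZT1, 3 of the 19 were higher and 5 lower, against 22.8% and 10.9% over all genes. *SNRK2.8* (-0.62, adjusted p = 0.000558) and *TRXH5* (-0.70, adjusted p = 0.0146) fell, while the TGA factor *TGA3* (0.56, adjusted p = 0.00348) and the ubiquitin protease *UBP7* (0.26, adjusted p = 0.0418) rose. In *lux-1* against Col-0 at ZT1, 4 genes of the list were higher, *TGA3* among them (0.87, adjusted p = 0.000151), and none lower. Over all genes the shares were 13.2% and 4.61%. At ZT13 none of the 19 was called in either *lux-1* comparison. Between times, 14 rose and 1 fell towards ZT13 in Col-0, and 4 rose and 1 fell in *acd6-1*. Over all genes the shares were 45.6% and 14.4% in Col-0, and 31.2% and 15.8% in *acd6-1*, so the 4 of 19 lie under the background.

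Of 13 SA response genes downstream of NPR1, all 13 were higher in *acd6-1* at ZT1, with a median log2 difference of 2.45. Over all genes the shares were 37.2% higher and 31.0% lower. *PR2* gave 5.599 (adjusted p = 8.28e-11), *WRKY53* 3.27 (adjusted p = 2.09e-10), *PR5* 3.63 (adjusted p = 4.65e-10) and *WRKY58*, a negative regulator of SA resistance, 2.37 (adjusted p = 1.39e-09). In *acd6-1lux-1* against *acd6-1* at ZT1 1 of 13 was lower, *WRKY53* (-1.26, adjusted p = 9.85e-05), and the median was -0.17. Over all genes 22.8% were higher and 10.9% lower in that comparison, so the 1 of 13 does not stand out from the background. *PR1* gave -1.24 (adjusted p = 0.173). Between *lux-1* and Col-0 at ZT1, 4 of the 13 were higher and 1 lower (median 0.28), against 13.2% and 4.61% over all genes. At ZT13 none of the 13 was called in either *lux-1* comparison.

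Of 7 genes for SA synthesis and its regulation, 7 were higher in *acd6-1* at ZT1 (median log2 4.09) and 6 were lower in *acd6-1lux-1* than in *acd6-1* (median -0.84). Over all genes, 37.2% were higher in the first comparison and 10.9% lower in the second. *PAD4*, a lipase-like partner of EDS1, gave 4.09 (adjusted p = 1.15e-11) and -0.62 (adjusted p = 0.0064). *ICS1*, which encodes the isochorismate synthase of SA synthesis, gave 4.35 (adjusted p = 9.83e-11) and -1.01 (adjusted p = 0.00313). The transcription factor gene *SARD1* gave 4.74 and -0.91, and *PBS3*, which conjugates isochorismate to glutamate, 5.65 and -1.12. Between *lux-1* and Col-0 at ZT1, 2 of the 7 were higher and 1 lower (median 0.17), against 13.2% and 4.61% over all genes. At ZT13 none of the 7 was called in the *lux-1* comparisons.

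The NPR relatives *BOP1* and *BOP2*, which pattern leaves and flowers, were nearly level or lower in *acd6-1*. At ZT1 *BOP1* gave -0.21 (adjusted p = 0.365) and *BOP2* -0.24 (adjusted p = 0.0877) in *acd6-1* against Col-0, where *NIMIN1-like* gave 1.39 (adjusted p = 0.000191). In *acd6-1lux-1* against *acd6-1* at ZT1 *BOP2* was higher (0.42, adjusted p = 0.0153).

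The genes with the most similar pattern were sought among 16551 genes with a highest group mean of at least 5 RPKM, by Pearson r of log2(RPKM + 1) over the 22 libraries, as a description. For *NPR1* they were *PAD4* (r = 0.9913), *WAKL6* (0.9912) and AT4G23610 (0.9905), and for *NPR2* AT1G67850 (0.9847), AT2G42350 (0.9840) and *CRK23* (0.9836). Those of *NPR3* were AT2G32140 (0.9921), *WRKY46* (0.9917) and AT4G34150 (0.9904), and of *NPR4* *CRK38* (0.9766), AT4G19370 (0.9751) and *DMR6* (0.9722). The points of every r share the libraries, their depth and the contrast between groups with and without *acd6-1*.

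For *NIMIN1* the nearest patterns were *MPK4* (0.9722), AT5G22530 (0.9703) and *ABCB27* (0.9677), and for *NIMIN2* AT1G69840 (0.9796), AT3G47540 (0.9796) and *WRKY70* (0.9788). *NIMIN3* had *ATR1* (0.9722), *AGL31* (0.9687) and AT3G08650 (0.9655). Among the 7 genes themselves r was highest between *NPR4* and *NIMIN2* (0.9559) and lowest between *NPR4* and *NIMIN3* (0.2645).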

How the data were processed

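The authors extracted RNA from 22 samples of 25-day-old plants, made TruSeq libraries and sequenced 51-cycle single reads on a HiSeq. The submitters' processing notes name CASAVA and TAIR10, and the aligner and counter were not given in the sources used here. The authors deposited RPKM per gene and library, and per library the total read count and the mapped reads with their percent. RPKM values returned whole reads within 0.001 read for 100% of values, so the count tests ran on those reads as an alternative. Of the recovered lengths 97.43% were multiples of 3, so lengths are coding lengths. The table holds 1 more column, the authors' ratio of mean *lux-1* to mean Col-0 at ZT1, which was not used.

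Groups came from the sample labels, in which acd6-1-0 was taken as *acd6-1*. The main test was limma 3.58.1 (R 4.3.3) on log2(RPKM + 1) with a trended prior, in 1 model of the 8 groups over the 21666 genes above 0.3 RPKM, called at Benjamini-Hochberg adjusted p under 0.1, the offset, limit and rate being those of the study's methods. The deposited values being RPKM, the count test of the study was not the main test, and edgeR and limma voom were run on the recovered reads in place of DESeq. Nothing in the sources says more of the replicates than that they are separate biological samples. Alternatives were offsets of 0.1 and 0.5, a limit of 1 RPKM or none, adjusted p under 0.05, a log2 difference of 1, a prior without trend, other scalings, limma voom and edgeR 4.0.16 on recovered reads, only the libraries compared, a replicate block, and each library left out. The fit was tested on simulated data. Tables and figures were made with pandas 2.3.3, numpy 2.4.6 and matplotlib 3.10.9 in Python 3.11.15.

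Named genes were all members, in each pathway list up to 4 genes with the smallest adjusted p in *acd6-1* against Col-0 and in *acd6-1lux-1* against *acd6-1* at ZT1, 3 genes of most similar pattern per member, and *PR1* and *LUX* as checks of the labels. For the 20 loci around each member only counts are given. *SNI1*, and *TGA3* in *lux-1*, were named after their values were seen. The members and lists were chosen with earlier results of these data known. Symbols of 24867 genes were matched in RefSeq's table. Sequences and promoter motifs were not analysed here.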

Additional observations from a re-analysis of the deposited data

Results flagged for a closer look

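The tests of a difference between 2 effects called 5 member results, to be read beside the shares over all genes. The *lux-1* difference between backgrounds was called in 16.0% of all genes at ZT1 and 0.586% at ZT13. The change of the *acd6-1* difference with time was called in 32.9%. That of the *lux-1* difference was called in 13.1% in Col-0 and 6.84% in *acd6-1*. The *lux-1* difference of *NPR1* in the *acd6-1* background minus that in Col-0, both at ZT1, was -0.55 on the log2 scale (SE 0.13, limma adjusted p = 0.0198). The *acd6-1* difference at ZT13 minus that at ZT1 was -0.84 for *NPR1* (SE 0.14, adjusted p = 0.000285), -0.79 for *NPR2* (SE 0.24, adjusted p = 0.0222) and -1.13 for *NIMIN3* (SE 0.20, adjusted p = 0.000439). The *lux-1* difference of *NPR3* in the Col-0 background was 1.41 higher at ZT13 than at ZT1 (SE 0.29, adjusted p = 0.00621). No group was large enough for a test of single outlying samples.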

How the results depend on the processing

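Of 49 member calls, 29 held under all 36 alternatives, 20 were lost in at least 1 and 0 changed sign. With a log2 difference of 1 also required, the members called fell from 7 to 6 at ZT1 and from 6 to 4 at ZT13 in *acd6-1* against Col-0, from 7 to 6 and from 6 to 5 in *acd6-1lux-1* against *lux-1*, and to 0 in *lux-1* against Col-0 at ZT1, 1 in *acd6-1lux-1* against *acd6-1* at ZT1, 2 for time in Col-0, 2 in *lux-1*, 0 in *acd6-1* and 1 in *acd6-1lux-1*, 0 for the background difference and 1 for the change of the *acd6-1* effect with time. With only the libraries compared, counts were 1 in *acd6-1lux-1* against *acd6-1* at ZT1 (*NPR3*), 2 for time in *acd6-1* and in *acd6-1lux-1*, and 5 for the change of the *acd6-1* effect, with *NPR4* and *NIMIN1* added there. Leaving out 1 library gave 1 to 2 calls in *lux-1* against Col-0 at ZT1, 2 to 3 in *acd6-1lux-1* against *acd6-1* at ZT1, 4 to 6 for time in *lux-1*, 0 to 1 in *acd6-1*, 3 to 4 in *acd6-1lux-1*, and 0 to 2 for the change of the *lux-1* difference with time in *acd6-1*. Leaving out a library changed no other count. Between *lux-1* and Col-0 at ZT1, edgeR called 1275 genes higher and 1544 lower, against 2855 and 999 by limma, and for time in Col-0 5601 and 6049 against 9873 and 3127. With a replicate block by the numbers in the descriptions, time in *lux-1* gave 4 calls instead of 5 (*NIMIN1*, adjusted p = 0.106), and a block by the titles changed no count. The deviations of same-numbered samples had a mean r of -0.006 by title (-0.540 to 0.296) and 0.009 by description (-0.540 to 0.342). With 2 or 3 libraries per group this cannot settle whether the numbers pair them. The main test took the samples as unpaired. Few reads limit *NPR2* and *NIMIN1*, with as few as 16 and 11 in a library.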
